A study of Mus musculus with 4 samples.

Results

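The 32 genes described here encode proteins of the skeletal muscle fibre: the thick and thin filaments of the sarcomere, the Z-disc and titin, the calcium release and uptake system, and enzymes of energy supply. They were taken by symbol from a list that was drawn up with earlier results of these data known, and all 32 had a row among the 17721 genes of the deposited table. RNA was sequenced from dispase-treated back skin of C57BL/6 mice at postnatal day 63, and the series title calls the material epidermal lysates. There were 2 libraries from wild type mice and 2 from LDB2-/- mice, which lack Ldb2, an adaptor of LIM domain transcription factors. The labels give no other allele or treatment for either genotype, and they do not say how the LDB2-/- allele was made, what sex the mice were, or whether a library was 1 animal or a pool. Nothing in them says that the libraries came from separate animals or names a batch, so the p-values below measure the spread between these libraries, which may be technical. The design compares the genotypes at 1 age.

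A skeletal muscle fibre contracts when myosin of the thick filament pulls on actin of the thin filament, after calcium binds troponin on the thin filament. Most of these proteins exist in fast and slow fibre forms made by separate genes, and many have nonmuscle relatives that nearly every cell uses. Keratinocytes have no sarcomeres. The mouse skin lies on a thin sheet of skeletal muscle, the panniculus carnosus, and smooth muscle is found in its vessels and in the muscles that raise the hairs.

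The total count was 54095522 to 68436842 per library. Ldb2 had 0 and 8 counts in wild type against 0 and 0 in LDB2-/-, too few to check the genotype labels, and it was not called (edgeR adjusted p = 0.291). Of 12 markers of basal and suprabasal keratinocytes, all 12 had counts in every library, with Krt5 at a mean FPKM of 5649 in wild type and 2191 in LDB2-/-, so genes of the labelled tissue were found in both genotypes. Fibroblast genes, which epidermis should lack, also had counts in every library (10 of 10). In bulk tissue, fewer cells of a type and less RNA per cell cannot be told apart.

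The letters upstream of 6 members are shown first, and no count or call below uses them. They lie before Acta1, the member with the second most counts in LDB2-/-, and the neighbouring myosin genes Myh2, Myh1 and Myh4. The others lie before Pvalb, at 0 in both wild type libraries, and Ldb3, the only member called lower. Each stretch is the 250 bases before a RefSeq start site (GRCm38.p6, which is mm10), written 5′ to 3′ on the gene's own strand. Capitals mark matches to an E-box (CANNTG, the site bound by myogenic bHLH factors), to TATAAA, to the MEF2 motif and to the CArG motif bound by SRF, each searched on both strands. Where TATAAA lies inside a MEF2 match, the capitals run together.
Acta1 (chr8:123894776-123895025, minus strand): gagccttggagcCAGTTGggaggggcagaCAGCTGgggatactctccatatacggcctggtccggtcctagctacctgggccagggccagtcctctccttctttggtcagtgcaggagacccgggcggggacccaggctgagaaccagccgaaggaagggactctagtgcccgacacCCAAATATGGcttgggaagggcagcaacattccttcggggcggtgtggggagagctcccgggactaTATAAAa
Myh2 (chr11:67170777-67171026, plus strand): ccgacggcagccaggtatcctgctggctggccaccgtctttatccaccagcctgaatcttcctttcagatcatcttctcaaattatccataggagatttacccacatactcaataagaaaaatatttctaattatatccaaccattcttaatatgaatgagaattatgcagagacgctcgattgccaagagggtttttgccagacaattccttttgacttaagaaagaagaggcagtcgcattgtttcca
Myh1 (chr11:67199852-67200101, plus strand): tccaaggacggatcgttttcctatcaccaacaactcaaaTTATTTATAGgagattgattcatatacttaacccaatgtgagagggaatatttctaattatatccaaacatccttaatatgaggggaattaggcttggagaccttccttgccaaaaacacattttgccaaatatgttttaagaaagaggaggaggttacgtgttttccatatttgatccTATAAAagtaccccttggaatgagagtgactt
Myh4 (chr11:67237562-67237811, plus strand): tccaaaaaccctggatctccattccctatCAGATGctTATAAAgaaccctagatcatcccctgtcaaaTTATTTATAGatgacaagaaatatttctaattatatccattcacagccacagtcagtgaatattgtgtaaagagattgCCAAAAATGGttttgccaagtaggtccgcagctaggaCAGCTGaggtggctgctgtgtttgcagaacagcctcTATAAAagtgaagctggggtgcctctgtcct
Pvalb (chr15:78206401-78206650, minus strand): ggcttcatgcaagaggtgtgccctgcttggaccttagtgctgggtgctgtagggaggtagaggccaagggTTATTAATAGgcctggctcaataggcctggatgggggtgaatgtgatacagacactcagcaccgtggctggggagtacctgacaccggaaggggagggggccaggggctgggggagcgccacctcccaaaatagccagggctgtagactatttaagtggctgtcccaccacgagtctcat
Ldb3 (chr14:34588682-34588931, minus strand): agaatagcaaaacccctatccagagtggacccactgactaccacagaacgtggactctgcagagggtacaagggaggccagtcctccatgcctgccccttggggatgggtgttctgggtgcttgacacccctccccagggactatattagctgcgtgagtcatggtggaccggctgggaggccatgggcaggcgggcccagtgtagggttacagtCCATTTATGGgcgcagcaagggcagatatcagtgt
RefSeq windows were found for 24 of the 32 members, in 29 windows. An E-box match was in 23 of 29 member windows (79.3%) and in 66.2% of all 32851 windows of that length. TATAAA was in 5 of 29 (17.2%) against 12.4% of all, MEF2 in 4 (13.8%) against 2.92%, and CArG in 4 (13.8%) against 1.47%. The MEF2 matches were in the windows of Ttn, Myh1, Myh4 and Pvalb, and the CArG matches in those of Acta1, Myh4 and Ldb3, which has 2 overlapping windows. The Acta1 CArG match lies 73 to 64 bases before the start site. The Myh1 and Myh4 windows share a TATAAA match that begins 32 and 31 bases before the start, while the Myh2 window holds none of the 4 motifs. These are matches of letters only.

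Of the 32 members, 16 were called higher in LDB2-/- and 1 was called lower, by edgeR's quasi-likelihood test on all 17721 genes at an adjusted p under 0.05. That is 50% and 3.12% of the members, where 19.7% of all genes were called higher and 21.1% lower. The same shares of all genes are the comparison for every list counted below. Since the list was made with such results known, this is a description of these genes and not independent evidence of their direction. The members' median log2 fold change was 3.70, or 2.99 with genes at 0 in 1 genotype set to their bounds, beside -0.09 over all genes. After scaling, both LDB2-/- libraries lay above both wild type libraries for 25 members and below them for 2, while 34.5% of all genes lay above and 38.7% below. The levels were low. In wild type, 16 members had at most 10 counts in each library and 7 of these had none, while in LDB2-/- 3 members had at most 10 counts in each library.

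**Figure D1:**
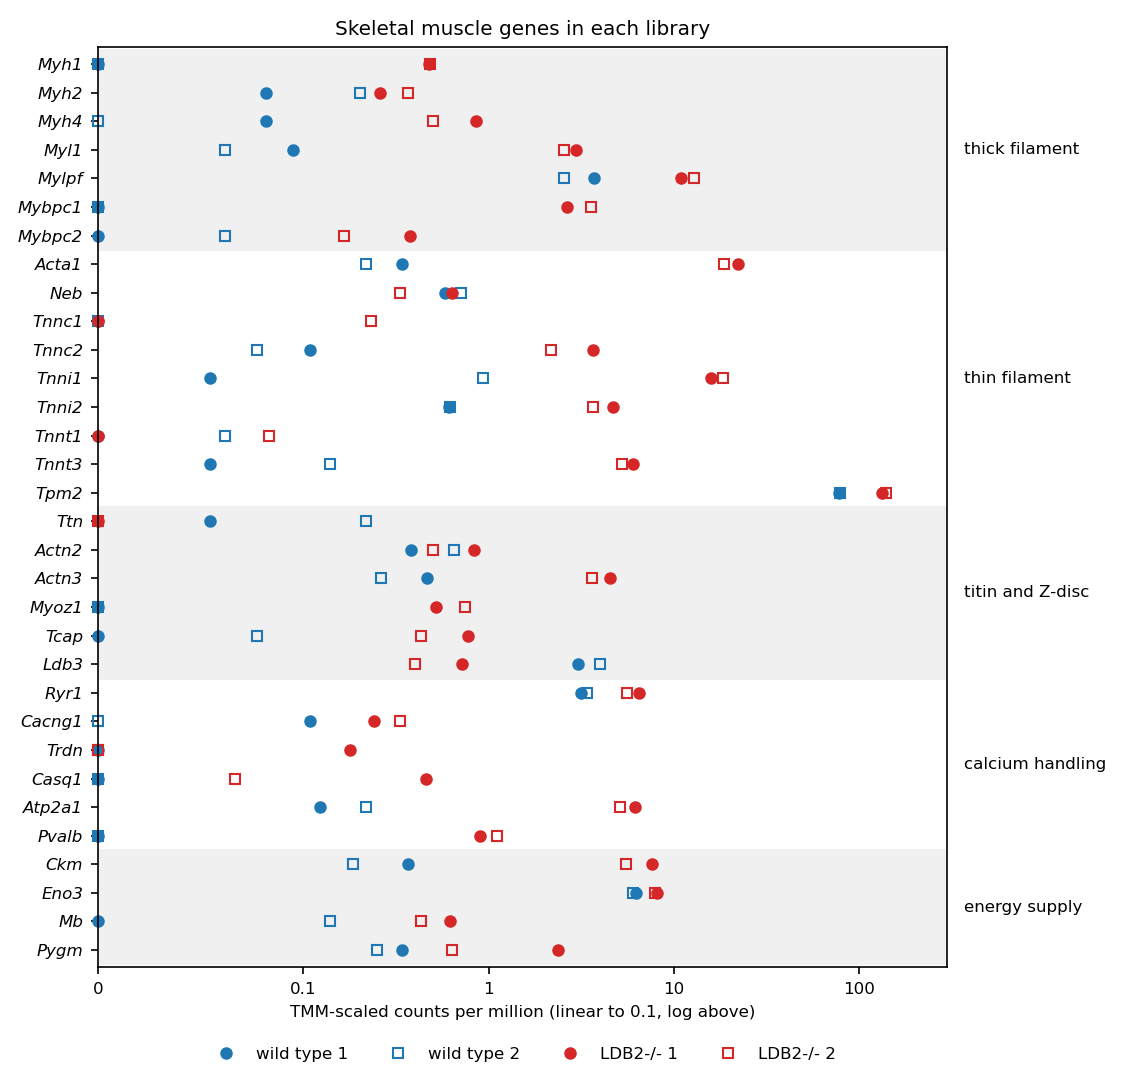
TMM-scaled CPM of each of the 32 members (rows, by role) in the 2 wild type (blue) and 2 LDB2-/- (red) libraries, on an axis that is linear to 0.1 and logarithmic above. Most red points lie to the right of the blue ones, Ldb3 and Ttn lie the other way, and 7 genes sit at 0 in both wild type libraries.

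In the thick filament all 7 members lay higher in both LDB2-/- libraries and 4 were called, with a median log2 fold change of 3.96. Mybpc1, a myosin-binding protein that braces the thick filament and is best known from slow fibres, had 0 and 0 counts in wild type against 133 and 215 in LDB2-/-. Against 3 counts over the wild type group it was at least 145-fold higher (adjusted p = 0.00167). Its fast fibre relative Mybpc2 had 0 and 4 counts against 19 and 10 and was not called (adjusted p = 0.24). So of this pair the gene with many counts in LDB2-/- was Mybpc1, the one best known from slow fibres.

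Per length, the light chains stood above the heavy chains in LDB2-/-, at 14.8 and 2.75 FPKM against 0.044 to 0.099. Mylpf, the regulatory light chain of fast fibres, had 274 and 164 counts in wild type against 548 and 778 in LDB2-/-. It rose 3.80-fold, from 3.13 ± 0.83 to 11.9 ± 1.43 CPM (SD, n = 2, counts scaled by TMM; log2 fold change 1.93, SE 0.26, adjusted p = 0.00352). Myl1, the essential light chain, had 7 and 4 counts against 149 and 154, and its log2 fold change was 5.09 (SE 0.55, adjusted p = 0.00168). Of its 50-base windows 23.4% also occur in the pseudogene Mylf-ps, so part of its count is uncertain. Both light chain genes had counts in all libraries and no overlap of the genotypes.

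The fast myosin heavy chains, the motors themselves, had few counts in any library. Myh1 had 0 and 0 counts in wild type against 24 and 29 in LDB2-/-, at least 22.1-fold higher (adjusted p = 0.0297). Myh4 had 6 and 0 against 43 and 30 and was not called by edgeR (adjusted p = 0.0983), although DESeq2 called it. Myh2 had 6 and 13 against 13 and 22 (adjusted p = 0.483). The 3 genes are neighbours on chromosome 11 (Myh2 at 67171027 to 67197517, Myh1 at 67200102 to 67224577 and Myh4 at 67237812 to 67260447, GRCm38.p6). Of the 50-base windows of their longest transcripts, 26.7% for Myh1, 26.9% for Myh2 and 18.9% for Myh4 also occur in another gene, so the division of reads among them is uncertain. The Myh1 call was lost without either wild type library (adjusted p = 0.107 and 0.109).

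In the thin filament 6 of 9 members were called higher, with a median of 4.93, or 2.76 with bounds. Acta1, the actin of skeletal muscle (gene ID 11459, chromosome 8, 123891758 to 123894775), had 25 and 14 counts in wild type against 1123 and 1122 in LDB2-/-. It rose 72.6-fold, from 0.28 ± 0.09 to 20.5 ± 2.63 CPM (n = 2, log2 fold change 6.18, SE 0.30, adjusted p = 0.000254). Of its 50-base windows only 2.22% occur in another gene, so few of its reads can be shared with other actins.

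The troponin subunits did not move alike. The inhibitory subunit of slow fibres, Tnni1, had 4 and 60 counts in wild type against 799 and 1113 in LDB2-/-, and rose by 5.15 (SE 0.97, adjusted p = 0.01). Its wild type libraries differed from each other, and its log2 fold change was 8.25 from wild type library 1 alone and 4.21 from wild type library 2 alone. The 15 listed hair shaft and inner root sheath genes differed between those libraries in the same direction, at a summed 195.9 CPM in wild type library 1 and 772.4 in library 2, and their part in the Tnni1 values was not tested. Tnni2, the fast form, had 45 and 40 counts against 236 and 221 and rose by 2.76 (SE 0.35, adjusted p = 0.00268).

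Tnnt3, the fast subunit that binds tropomyosin, had 4 and 9 counts against 304 and 317 and rose by 5.86 (SE 0.50, adjusted p = 0.000871). It was at 6.65 without wild type replicate 2. Its slow counterpart Tnnt1 had 0 and 4 counts against 0 and 5 (adjusted p = 0.895), so it was near 0 in all 4 libraries.

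Tnnc2, the fast calcium-binding subunit, had 8 and 5 counts against 183 and 131 and rose by 4.93 (SE 0.58, adjusted p = 0.00223). In the GENCODE annotation the exons of Tnnc2 and of Ube2c, on the other strand, share 592 bases. In RefSeq the genes do not overlap, with Tnnc2 at 164777161 to 164779734 and Ube2c at 164769929 to 164772902 on chromosome 2. The annotation and strand used in counting are not stated, so whether they share reads is not known. Ube2c had 2286 and 1864 counts against 2570 and 3520 and rose by 0.87, and its part in the Tnnc2 counts was not tested. The slow form Tnnc1 had counts in 1 library only, 14 in LDB2-/- library 2 (adjusted p = 0.203). Of the 3 slow troponin genes, then, Tnni1 rose and the other two were at or near 0.

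Tpm2, the tropomyosin that is also made in smooth muscle, was the member with the most counts in every library. It had 5781 and 5103 counts in wild type against 6720 and 8415 in LDB2-/-, and rose 1.74-fold, from 78.9 ± 0.41 to 136.9 ± 4.28 CPM (n = 2, log2 fold change 0.80, SE 0.10, adjusted p = 0.00314). Neb, the giant ruler of the thin filament, had 43 and 46 counts against 32 and 20 with overlap after scaling (log2 fold change -0.42, adjusted p = 0.68).

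At the Z-disc and titin the directions were mixed, with 2 of 6 members higher and 1 lower and a median of 1.92. Actn3, the fast fibre alpha-actinin that anchors actin in the Z-disc, had 34 and 17 counts in wild type against 227 and 219 in LDB2-/- and rose by 3.48 (SE 0.44, adjusted p = 0.00283). Actn2, found in all skeletal and heart muscle, had 28 and 42 against 42 and 30 with overlap (adjusted p = 0.719). Myoz1, a calcineurin-binding protein of fast Z-discs, had 0 and 0 against 26 and 45, at least 29.6-fold higher (adjusted p = 0.0198), a call lost without either wild type replicate 1 or replicate 2. Tcap, which caps titin, had 0 and 5 against 39 and 26 and was not called by edgeR (adjusted p = 0.115), though DESeq2 called it.

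Ldb3 was the only member called lower. This PDZ and LIM protein of the Z-disc, a different family from Ldb2 despite the symbol, had 224 and 257 counts in wild type against 36 and 24 in LDB2-/-. It was 6.31-fold lower, at 3.52 ± 0.67 against 0.56 ± 0.22 CPM (n = 2, log2 fold change -2.66, SE 0.46, adjusted p = 0.00746). The call was lost without wild type replicate 2 (log2 fold change -2.45, adjusted p = 0.0567). Ttn, the spring of the sarcomere and the longest transcript here, had 4 and 14 counts in wild type against 0 and 0 in LDB2-/- and was not called (adjusted p = 0.123).

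**Figure D2:**
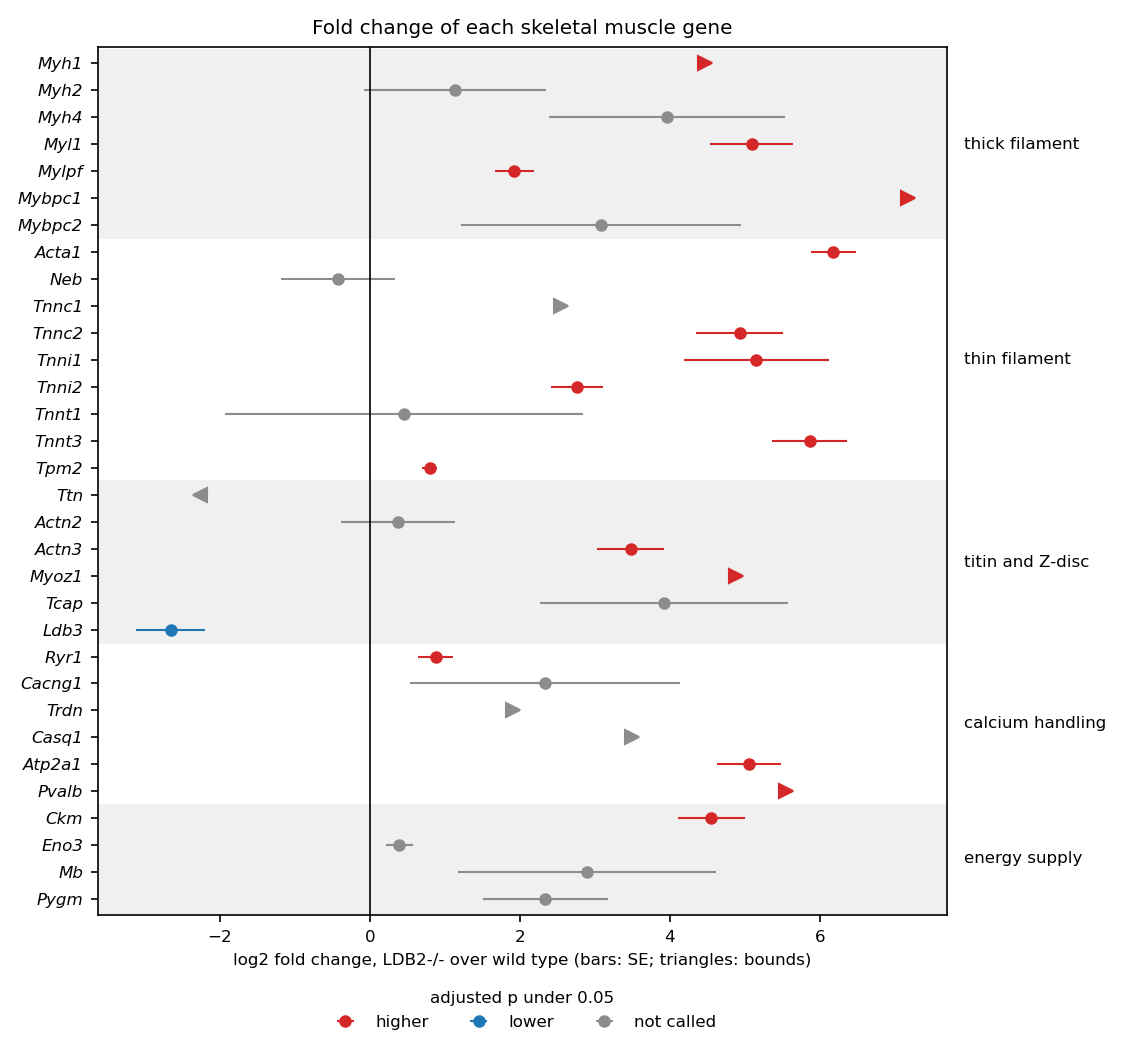
Log2 fold change of LDB2-/- over wild type for each member, with the standard error from the edgeR test as bars, and triangles for bounds against 3 counts where 1 genotype had no counts. The 16 members called higher (red) run from 0.80 for Tpm2 to a bound of 7.18 for Mybpc1, and Ldb3 (blue) is at -2.66.

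Of the 6 calcium handling members 3 were called higher, with a median of 5.27, or 2.91 with bounds. Atp2a1, the pump that returns calcium to the sarcoplasmic reticulum of fast fibres, had 9 and 14 counts in wild type against 311 and 307 in LDB2-/- and rose by 5.05 (SE 0.42, adjusted p = 0.000816). In the GENCODE annotation its exons share 763 bases with Rabep2 on the other strand. In RefSeq the genes overlap only at their ends, as Atp2a1 starts at 126445858 and Rabep2 ends at 126445907 on chromosome 7. Rabep2 had 3222 and 2848 counts against 1228 and 1842 and fell by 0.68, and its part in the Atp2a1 counts was not tested. Pvalb, the soluble calcium buffer parvalbumin, had 0 and 0 counts against 45 and 67, at least 46.7-fold higher (adjusted p = 0.00932).

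The calcium release channel gene Ryr1 had counts in every library, 233 and 220 in wild type against 327 and 335 in LDB2-/-. It rose by 0.88 (SE 0.23, adjusted p = 0.0306), but this call was lost in 7 of 15 alternatives, among them library totals alone (adjusted p = 0.11) and leaving out wild type replicate 1 (0.121), wild type replicate 2 (0.0978) or LDB2-/- replicate 1 (0.0856). In the GENCODE annotation the exons of Ryr1 share 864 bases with Gm26604 on the other strand. Other called members also overlap exons on the other strand there: Myh1 with Myhas (515 bases), Ckm with A930016O22Rik (451) and Mybpc1 with Gm48752 (252). So do the uncalled Myh2, Mybpc2, Neb, Ttn, Casq1 and Mb. The part of these overlaps in the counts was not tested. Casq1, the calcium store protein, had 0 and 0 against 23 and 4 (adjusted p = 0.0814), and it was called without LDB2-/- replicate 2 (0.0294) and by DESeq2, but not without LDB2-/- replicate 1 (0.226). Cacng1, a calcium channel subunit, had 8 and 0 against 12 and 20 (adjusted p = 0.344). Trdn, which ties the release channel to the calcium store, had counts in 1 library only, 9 in LDB2-/- library 1. Most counts of the release side thus came from Ryr1, which was at 3.29 CPM in wild type and 6.04 in LDB2-/-. Atp2a1 and Pvalb, of the uptake and buffer side, were at 0.17 and 0 CPM in wild type against 5.65 and 1.00 in LDB2-/-.

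Among the 4 energy supply genes only Ckm was called, and the median was 2.62. That is 25% called higher, near the 19.7% of all genes. Ckm, the creatine kinase of muscle, had 27 and 12 counts in wild type against 385 and 331 in LDB2-/- and rose by 4.55 (SE 0.45, adjusted p = 0.00127). Pygm, the muscle glycogen phosphorylase, had 25 and 16 against 119 and 38 (log2 fold change 2.34, adjusted p = 0.0738). Its LDB2-/- libraries differed from each other: leaving out LDB2-/- replicate 1 gave 1.11 (adjusted p = 0.319) and leaving out LDB2-/- replicate 2 gave 3.0 (adjusted p = 0.00632). DESeq2 on all 4 libraries called it. Mb, the oxygen store myoglobin, had 0 and 9 against 31 and 26 and was not called by edgeR (adjusted p = 0.233). It was called by limma on log2(FPKM + 1) and on log2(FPKM + 0.1). Eno3, the muscle enolase, had 459 and 387 against 408 and 478 counts, at 6.12 ± 0.17 and 8.04 ± 0.13 CPM (n = 2, log2 fold change 0.39, adjusted p = 0.148).

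By fibre type, 10 of the 14 members known from fast fibres were called higher and none lower, and all 14 lay above wild type in both LDB2-/- libraries (median 4.99, or 4.21 with bounds). That is 71.4% called higher and 100% above, beside 19.7% and 34.5% of all genes. The 4 called neither way were Myh2, Myh4, Mybpc2 and Casq1. Of the 4 slow fibre members Mybpc1 and Tnni1 were called higher and Tnnc1 and Tnnt1 were not (median 5.52, or 3.85 with bounds). The slow fibre values rest on these 4 members, since the further sarcomere symbols Myh7, Myl2 and Myl3 had no row. Within LDB2-/- libraries, Tnni1 was 2.1 and 3.10 times Tnni2 in FPKM, which is per length, and Mybpc1 was 6.47 and 19.9 times Mybpc2. In contrast Tnnt1 was 0.016 times Tnnt3, and Tnnc1 0.106 times Tnnc2, in LDB2-/- library 2. Tnnt1 and Tnnc1 were at 0 in LDB2-/- library 1.

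The members together took 98.6 and 100.2 CPM in wild type against 246.3 and 241.8 in LDB2-/-, a ratio of 2.46. Tpm2 alone was 79.7% and 79.0% of this in wild type and 54.3% and 57.9% in LDB2-/-. Without Tpm2 the sums were 20.0 and 21.0 against 112.4 and 101.9, a ratio of 5.22. Leaving out also Eno3, Mylpf, Ryr1 and Ldb3, the other members with the most wild type counts, gave 3.85 and 5.09 against 86.2 and 75.1, a ratio of 18.0. These genes were left out for their wild type level, the denominator of the ratio, so part of that increase is set by the choice. The leading members after Tpm2 thus differed by genotype: Eno3 in both wild type libraries, and Acta1 in both LDB2-/- libraries.

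Per length, in FPKM, the order in LDB2-/- began with Tpm2 (53.9 ± 0.84, SD, n = 2), Mylpf (14.8 ± 1.70), Tnni1 (14.1 ± 0.87) and Acta1 (12.3 ± 2.08), where the libraries' ranges overlapped between Mylpf and Tnni1 and between Tnni1 and Acta1. Next came Tnni2 (5.58 ± 1.18), Tnnt3 (4.87 ± 0.67), Eno3 (4.65 ± 0.49), Ckm (4.15 ± 1.13), Tnnc2 (3.74 ± 1.48) and Myl1 (2.75 ± 0.11), and again the range of each overlapped that of the next. The end of the order held Neb (0.019 ± 0.009), Trdn (0.016 ± 0.023) and Ttn, listed at 0. In wild type the order began with Tpm2 (38.6 ± 0.34), Mylpf (4.89 ± 1.25), Eno3 (4.46 ± 0.06) and Tnni2 (1.00 ± 0.02).

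In LDB2-/- the longer transcripts had lower levels per length than the shorter ones. Across the 32 members, Spearman's correlation of FPKM with the length of the longest coding transcript in GENCODE was -0.55 in LDB2-/- and -0.21 in wild type. This describes genes, not replicates; all points share the same libraries, and FPKM itself divides by length. At a limit of 3000 bases, chosen after the values were seen, 12 of 20 shorter members were called higher, with a median FPKM of 2.0 in LDB2-/- and 0.101 in wild type. Of 12 longer members 4 were called higher and 1 lower, with medians of 0.085 and 0.017. In wild type some longer members were among the higher ones, such as Ldb3 at 0.76 and Ryr1 at 0.233 FPKM. The longer set holds the myosin heavy chains, Neb, Ttn and Ryr1, and its highest FPKM in LDB2-/- was 1.46, for Atp2a1.

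**Figure D3:**
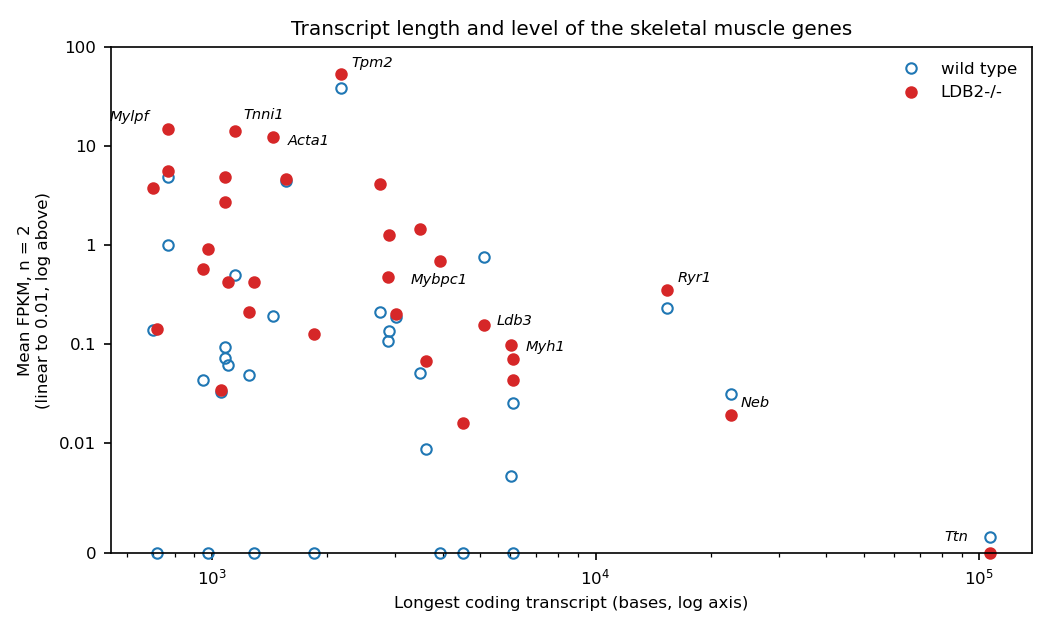
Mean FPKM (n = 2) of each member in wild type (open blue) and LDB2-/- (filled red) against the length of its longest coding transcript in bases, with a logarithmic horizontal axis and a vertical axis that is linear to 0.01 and logarithmic above. Red points over 2 FPKM are all left of 3000 bases, and Neb and Ttn, the longest at 22489 and 106824 bases, are below 0.1 in both genotypes.

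The relatives of the members that were listed as nonmuscle had a summed level of 7235 to 11011 CPM. The list is not free of muscle genes, since striated muscle also makes Tpm1, Tpm3 and Atp2a2. Of the 19 listed genes 10, Tpm1 among them, were called higher and 2 lower, with a median log2 fold change of 0.45. That is 52.6% called higher, near the 50% of the members, beside 19.7% of all genes. Both LDB2-/- libraries lay above both wild type libraries for 78.9% of these relatives, 78.1% of the members and 34.5% of all genes. In FPKM, Acta1 was 0.177 and 0.141 times Acta2, the actin of smooth muscle, in wild type, and 0.698 and 0.503 times it in LDB2-/-. Acta2 itself rose by 4.41 (SE 0.18, adjusted p = 0.000195), from 230 and 163 counts to 2793 and 3876. The muscle creatine kinase Ckm was 0.036 and 0.018 times Ckb, the form of brain and many other tissues, in wild type, and 0.130 and 0.072 times it in LDB2-/-, and Ckb rose by 2.73.

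Eno3 was between 0.011 and 0.014 times Eno1, the enolase of most cells, in all 4 libraries. Atp2a1 was at most 0.026 times Atp2a2, the pump of most cells, in any library. Tpm2 went down against Tpm1, from 0.450 and 0.493 to 0.211 and 0.248 times its FPKM, while Tpm1 rose by 1.82, and it went up against Tpm3 from 0.303 and 0.306 to 0.455 and 0.472.

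The further muscle genes listed here were called at a lower rate than all genes. Of 67 further muscle gene symbols in 4 lists, 49 had a row, and 3 were called higher and 3 lower, or 6.12% each way, below the 19.7% and 21.1% of all genes. Their median log2 fold change was 0.40, and 13 had at most 10 counts in every library. In wild type, 29 of the 49 had at most 10 counts in each library. The lists also held abundant genes, up to 12784 counts for Mef2a in wild type library 1. By list, 0 of 19 other sarcomere genes, 1 of 15 membrane and triad genes, 2 of 8 energy genes and 0 of 7 myogenic regulators were called higher, with medians of -0.11, 0.40, 1.98 and -0.14. The muscle regulators Myod1 and Myog had at most 6 counts in any library, and Pax7, of muscle stem cells, had 0 and 0 counts in wild type against 13 and 9 in LDB2-/- (adjusted p = 0.0712).

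The 3 that rose were Mylk4, a myosin light chain kinase family gene, with 0 and 0 counts against 34 and 47 and at least 33.8-fold higher (adjusted p = 0.0153), Pgam2, the muscle phosphoglycerate mutase (5.63, adjusted p = 0.019), and Cox7a1, a muscle form of a cytochrome oxidase subunit (2.70, adjusted p = 0.0448). The 3 that fell had at least 351 counts in each wild type library: Fbxo32, a ubiquitin ligase subunit (-1.93), the transcription factor Mef2a (-2.53) and the phosphorylase kinase subunit Phka1 (-2.36). Myom3, an M-band protein, had 715 and 718 counts against 463 and 382 (adjusted p = 0.218). Dmd, the dystrophin gene, had 1257 and 1303 against 778 and 943 (adjusted p = 0.254). The number called higher in these lists was 0 from wild type library 1 alone, 1 from wild type library 2 alone and 7 when LDB2-/- library 1 was left out.

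Genes of other cell types moved in the same comparison, and their part in the members' values was not tested. Of 12 smooth muscle genes 6 were called higher and 1 lower (median log2 fold change 3.76, or 3.07 with bounds). Their summed level was 93.6 to 98.0 CPM in wild type and 364.3 to 400.0 in LDB2-/-. Most of this sum was Smtn, at 76.1 and 78.6 CPM in wild type and 242.4 and 261.5 in LDB2-/-. Des, desmin, which both kinds of muscle make, had 0 and 4 counts against 143 and 172 and rose by 6.50 (adjusted p = 0.00575). Myh11, the smooth muscle myosin, had 0 and 0 against 12 and 27. Its bound was at least 16.3-fold higher (adjusted p = 0.0443). The 1 called lower was Itga8, with 42 and 13 counts in wild type against 0 and 0 in LDB2-/- (adjusted p = 0.0466). Mylk was not called but lay lower, with 768 and 805 counts against 424 and 524 (adjusted p = 0.127).

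Of 12 endothelial genes 9 were called higher (5.95 to 9.97 against 63.7 to 69.2 summed CPM), and Kdr had 10 and 5 counts in wild type against 0 and 0 in LDB2-/-. Of 10 fibroblast genes 7 were called higher, at a summed 88.9 to 121.6 against 249.0 to 313.7 CPM, led by Dcn (3.45). The medians were 2.72 for the endothelial and 1.45 for the fibroblast genes. Of 9 red cell genes 7 were called higher, and the summed level rose from 205.3 and 242.2 to 8888 and 11188 CPM. Of 7 Schwann cell genes 6 were called higher and 1, Mbp, lower, with sums of 61.6 to 64.3 against 66.1 to 66.3 CPM. Among 7 fat cell genes 2 were called higher and 1 lower; Fabp4 rose by 8.58, while the defining markers Adipoq and Plin1 had at most 7 counts in any library. Of the 12 keratinocyte genes 11 were called lower, and all 15 hair genes were called higher (medians -2.38 and 7.82), the latter from a summed 195.9 and 772.4 to 119128 and 129853 CPM.

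**Figure D4:**
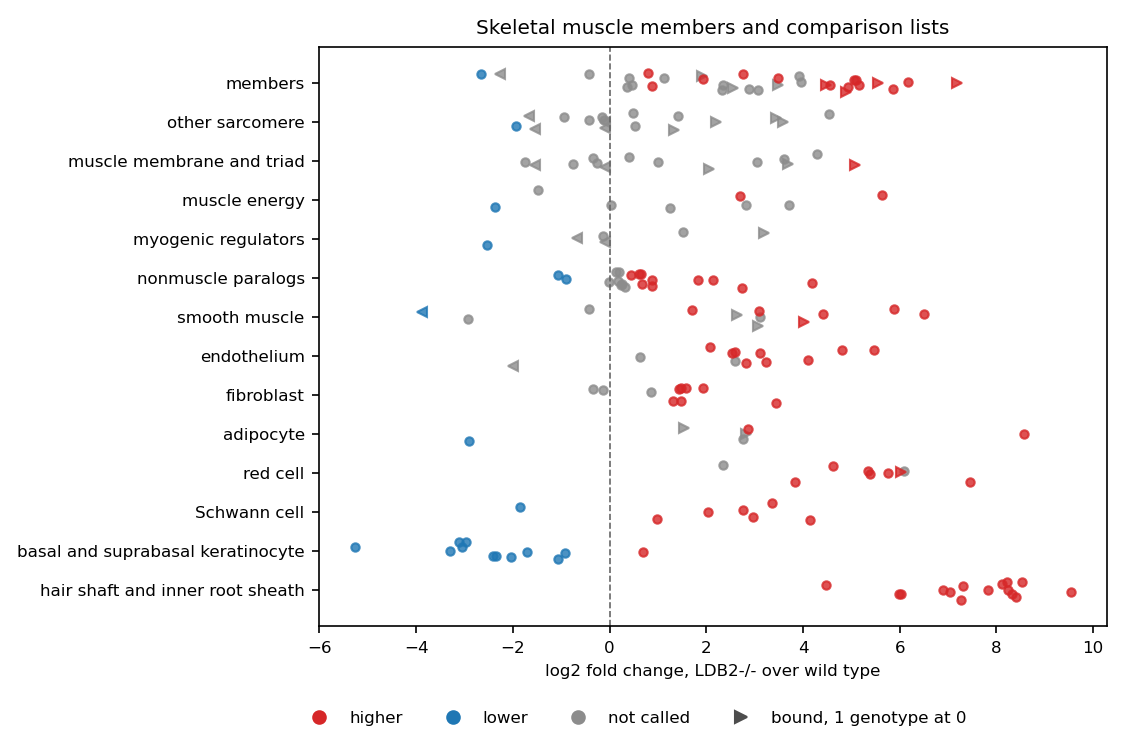
Log2 fold change of LDB2-/- over wild type for each gene (points, coloured by the edgeR call) of the 32 members and of 13 comparison lists, with triangles for bounds where 1 genotype had no counts; 5 genes at or under 3 counts over a group are not drawn. The members lean to the right, 3 of the 4 further muscle lists spread around 0, the muscle energy list has a median of 1.98, and the hair genes all lie beyond 4.

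In the authors' deposited table, 20 members were higher and 1 lower at an adjusted p under 0.05. These include all 16 and the 1 called here, in the same directions. There the signed fold change was 73.7 for Acta1, 59.9 for Tnnt3, 1.75 for Tpm2 and -6.27 for Ldb3.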

How the data were processed

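RNA-seq values of 4 libraries, 2 per genotype, were taken from 1 table of 17721 genes. The authors deposited read counts, whole numbers with no scaling, per the file headers. They also deposited FPKM, which is scaled to depth and transcript length, per the file headers. The deposited table also holds the authors' comparison, a signed fold change treated as a score and an adjusted p-value, by a method that the headers do not name. Tools in the submitters' processing notes are StringTie 1.3.4d, HISAT2 2.1.0 and bcl2fastq 1.8.4, with the build mm10. Counting settings and strand are not given in the sources used here.

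The members and lists were chosen with earlier results of these data known. Every gene was fitted, with no expression filter, using edgeR 4.0.16 (quasi-likelihood, TMM factors 0.879 to 1.12, two-sided, Benjamini-Hochberg over all genes). The SE is that implied by the F statistic. Genes at 0 in both libraries of a genotype have a bound, set against 3 counts summed over that group, which covers counting error only. A count of 0 in a library allows up to 0.0408 to 0.0597 CPM. All members were named. From other lists, genes were named from among the called genes with the largest changes, abundant uncalled genes and markers at 0. Not all such genes were named. Mbp, Krt5, Acta2 and Myod1 were chosen after their values were seen. Alternatives used limma 3.58.1 and DESeq2 1.42.0, in R 4.3.3. On simulated counts for 17469 genes, edgeR found 11 of 50 genes at a true fold of 4, 32 of 50 at 16 and 0 of 50 at 2. There were 3 false calls. Only 50 genes were changed at each fold, where 7229 genes were called in the real fit. With fewer changed genes the Benjamini-Hochberg threshold is stricter, so these rates do not carry over to the real fit. Transcript lengths, overlaps and shared windows came from GENCODE vM21, and gene coordinates from RefSeq.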

Additional observations from a re-analysis of the deposited data

How the results depend on the processing

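The fit was repeated under 16 alternatives. The number of members called higher was 11 to 20, and the 1 called lower was 0 with an FPKM of 1 or more in 2 libraries, where 12 members were tested and Ldb3 was not, and 0 to 1 when each library was left out. Leaving out a library gave 13 to 18 members called higher. The members' median log2 fold change, 3.70, was 3.41 with library totals alone, 4.76 with the FPKM filter, 2.58 with a prior count of 2, 0.40 with limma on log2(FPKM + 1), 1.20 with limma on log2(FPKM + 0.1), and 2.98 to 4.58 without 1 library. The pseudocounts compress low genes by construction. The summed members' ratio of 2.46 was 2.0 with library totals alone and 5.22 without Tpm2. Further muscle genes called higher, 3, were 6 with DESeq2, 5 with limma on log2(FPKM + 0.1), and 0 to 7 without 1 library, and those called lower were 3 to 6. All genes called split into 3488 higher and 3741 lower, and into 2363 and 5182 with library totals alone, which moved the median of all genes to -0.38. Of the single members' values under these alternatives, 457 kept direction and side of the threshold, 14 lost their call, 11 gained one and 3 reversed: Tnnt1, at -0.53 without wild type replicate 1 and -4.01 without LDB2-/- replicate 2 (range -4.01 to 4.44), and Actn2, at -0.035 without LDB2-/- replicate 1 (range -0.035 to 0.81). Both ranges leave out the limma settings. The cause of these reversals was not tested.

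The replicate numbers of the titles were not shown to pair libraries: deviations of same-numbered libraries correlated at -0.061 over 15171 genes. With a replicate block 14 members were called higher and 1 lower, at a median of 4.06; the calls of Myh1 (adjusted p = 0.0676) and Ryr1 (0.0858) were lost, and 5676 genes were called against 7229 without it.

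At this depth no difference was detectable for Myh2, Mybpc2, Cacng1 and Tnnt1, which had at most 22 counts in any library. No value was computed for Tnnc1 or Trdn where the left-out library held all their counts.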
